A study of Homo sapiens and Mus musculus with 12 samples.

Results

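Lysosome and autophagy genes were examined in NK cells under pharmacological and genetic loss of EHMT2. The list held 53 gene symbols, matched by symbol, and it was split by role into 20 hydrolases, 2 lumenal cofactors, 7 membrane proteins, 5 genes of the proton pump, 6 regulators and 13 autophagy genes. All 53 were present among the 22021 genes of the mouse table, and 50 among the 18304 genes of the human table. CTSL, MITF and RRAGD were not listed in the human table and are not analysed there. Every listed member was abundant enough to be tested, among 13189 mouse and 12727 human genes tested.

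RNA-seq had been carried out on NK cells of mouse and human origin, with 3 libraries in each of 4 groups. The human groups were NK92MI cells, an established human NK line that grows without added IL-2, treated with BIX-01294, an inhibitor of the EHMT2 methyltransferase, or with its solvent DMSO. A dose of 0.25 μM for 5 days is given for functional assays of these cells, and no dose is given for the RNA-seq libraries. The mouse groups were sorted splenic NK cells of KO animals, homozygous for the Ehmt2 flox allele and carrying Ncr1 iCre, and of WT animals, which carried the same flox alleles without Cre and are therefore floxed controls. Ncr1 encodes NKp46, so recombination is limited to cells that have expressed it, and the animals were adults of C57BL/6J background matched for age and sex. The KO libraries are titled EHMT2-KO, but their genotype label reads Ezh2-KO. Ehmt2 (GRCm38 chr17:34898469-34914052) stood at 171, 143 and 137 CPM (read counts scaled to a common library size) in KO and at 275, 284 and 285 CPM in WT NK cells, while Ezh2 had a log2 fold change of −0.23 (SE, the standard error, 0.09, adjusted p = 0.116, edgeR). In NK92MI cells EHMT2 itself was lower after BIX-01294, by 0.58 on the log2 scale (adjusted p = 0.000101, edgeR).

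Lysosomes are acidic organelles in which hydrolases degrade proteins, lipids and glycans delivered by endocytosis or by autophagosomes. The vacuolar ATPase acidifies their lumen, and membrane glycoproteins such as LAMP1 and LAMP2 line it. The transcription factors TFEB, TFE3 and MITF drive many of these genes through short E-box motifs. The folliculin complex and the Rag GTPases help mTORC1 to hold these factors back. In NK cells the cytolytic granule is itself a secretory lysosome, and LAMP1 on the cell surface is a common mark of degranulation. Macrophages are particularly rich in lysosomes.

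Total counts lay between 16579469 and 17165446 in human and between 25891680 (WT replicate 2) and 37438868 in mouse libraries. Replicates of a group differed with a biological coefficient of variation of 7.55% in NK92MI cells and 18.2% in splenic NK cells. Each species was tested with edgeR's quasi-likelihood test with Benjamini-Hochberg adjustment over all genes tested. A gene is described here as passing at an adjusted p under 0.05, and as called at an adjusted p under 0.01 with an absolute log2 fold change over 0.5. The 12 pan-NK marker genes were detected in both species, with a summed level of 4829 to 7007 CPM in NK92MI cells and of 5614 to 12541 CPM in splenic NK cells.

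Treatment of NK92MI cells with BIX-01294 was followed by higher levels of the autophagy receptors OPTN and SQSTM1, of the ATG8-family genes MAP1LC3B and GABARAPL1, of the folliculin genes FLCN and FNIP1, of TFE3, and of a set of lysosomal hydrolases, cofactors and pump subunits. Of the 50 members tested, 22 passed as higher and 2 as lower, that is 44% and 4%, where 18.4% of all genes passed in each direction. The called members numbered 11 higher and 0 lower, against 6.24% and 5.43% of all genes. For the 0 lower calls, the unadjusted p was under 0.05 for 2 lower members, and for 24 higher ones (all genes, 23.2% and 22.9%). DESeq2 and limma-voom called the same 11 members higher and 0 lower, where DESeq2 called 6.39% of all genes higher and 5.27% lower. The BIX-01294 and DMSO libraries did not overlap for 24 members that were higher and 4 that were lower (all genes, 24.1% and 23.9%).

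The median log2 fold change of the members was 0.20, against −0.01 for all genes, and it turned to −0.12 when libraries were scaled to the pan-NK list, which moved the median of all genes to −0.32. Relative to the median gene, the members stood at 0.21 with the usual scaling (TMM) and at 0.20 with the pan-NK scaling. Under the latter, 7 members passed as higher (OPTN, MAP1LC3B, GABARAPL1, SQSTM1, CTSS, PSAP and CD63) and 12 as lower, so that no regulator and no pump gene passed as higher. The pan-NK list is no fixed reference in this comparison, since 7 of its 12 genes passed as higher and 3 as lower. All fold changes below are those of the TMM scaling unless stated.

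**Figure D1:**
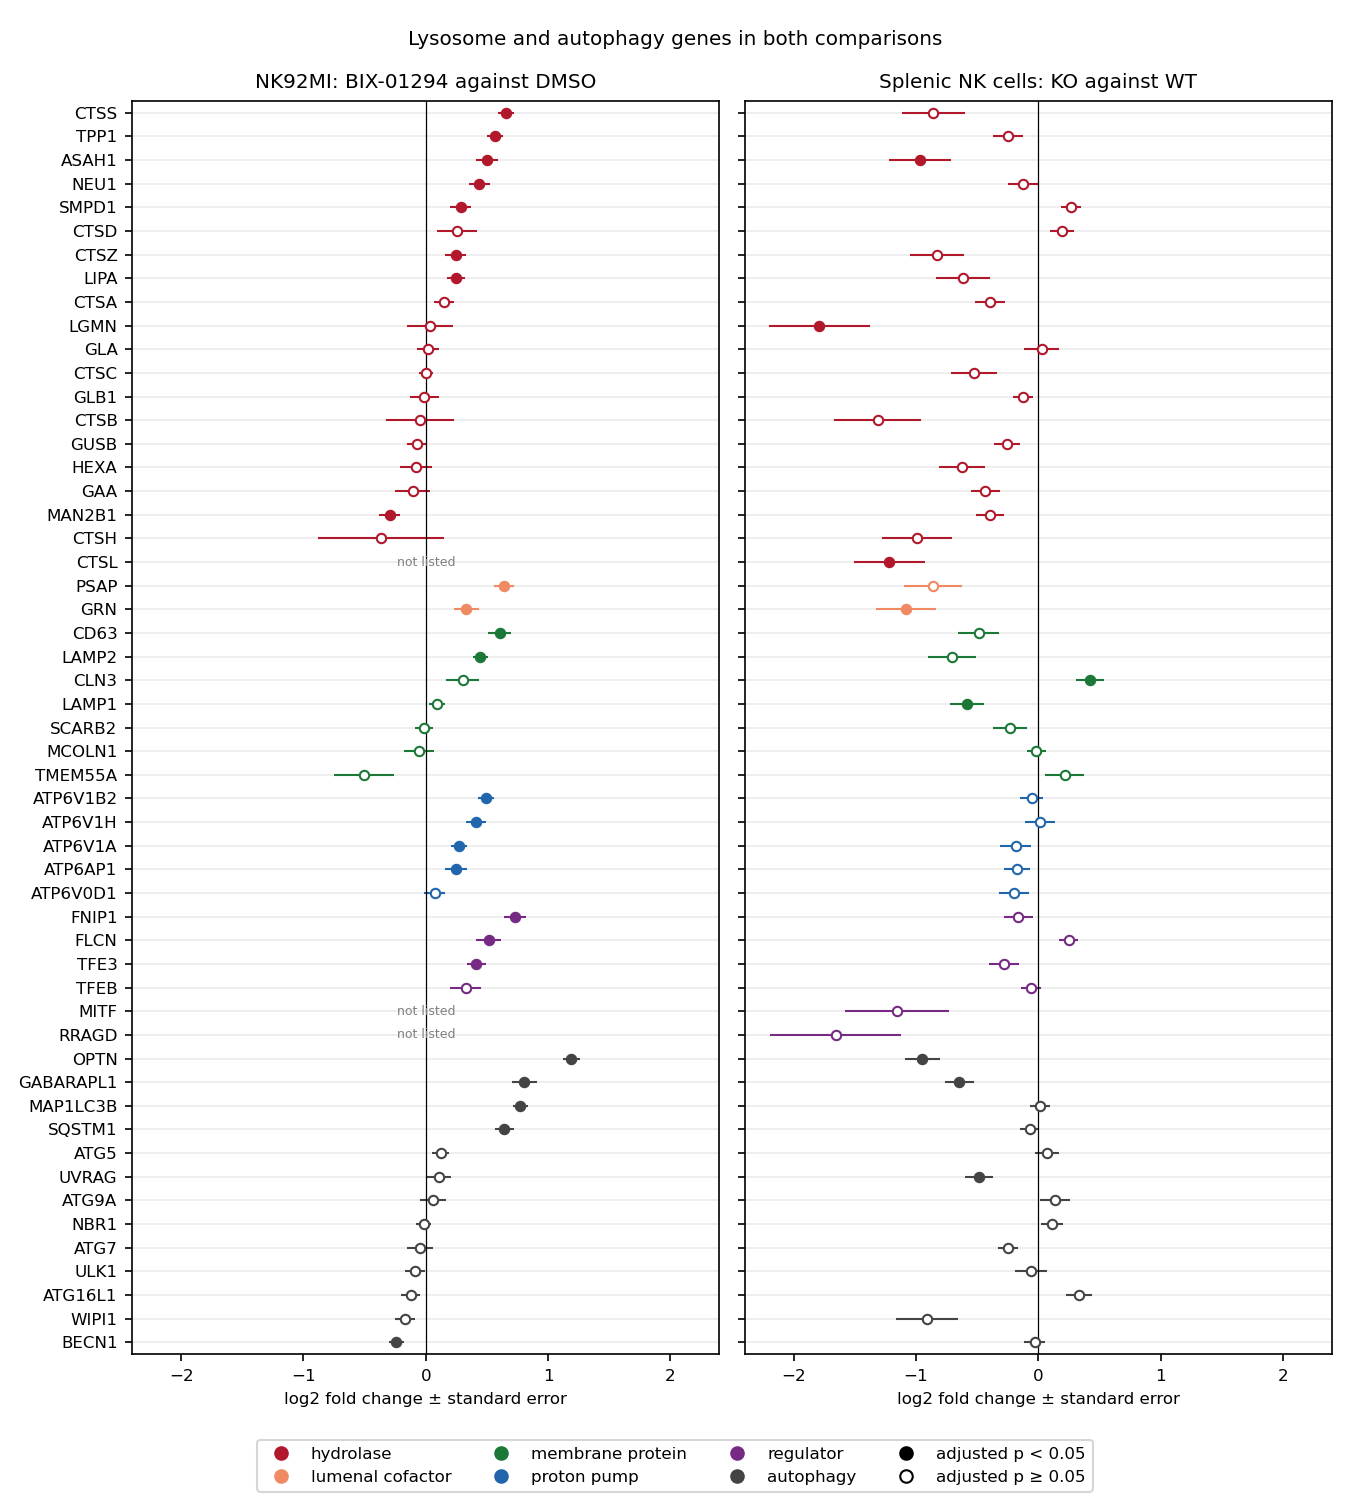
Log2 fold change (x axis) with its SE (bars) for each member (y axis, human symbols, ordered by role and by the human value), for BIX-01294 against DMSO in NK92MI cells on the left and for KO against WT splenic NK cells on the right, with 3 libraries a group. Filled points passed an adjusted p of 0.05 (22 higher and 2 lower on the left, 1 higher and 8 lower on the right), and the members lie mostly right of 0 on the left and left of 0 on the right. With the pan-NK scaling the counts become 7 and 12 on the left and 0 and 48 on the right. That scaling moved the median of all genes to −0.32 on the left and −0.82 on the right.

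Among the members, the autophagy genes OPTN, GABARAPL1 and MAP1LC3B had the largest log2 fold changes after BIX-01294. The median of all 13 autophagy genes was only 0.06. OPTN (GRCh38 chr10:13099449-13138308), encoding the selective autophagy receptor optineurin, was counted at 97.5, 98.2 and 108 CPM after BIX-01294 and at 44, 43.1 and 46.0 CPM after DMSO. Its log2 fold change was 1.19 (SE 0.07, adjusted p = 7.51e-08, edgeR), a 2.28-fold difference and the largest among the members. MAP1LC3B (chr16:87383953-87404779), encoding the LC3B protein that coats autophagosomes, stood at 144, 142 and 145 CPM against 85, 81.4 and 85.4 CPM. The replicates of each group lay close together and the groups far apart, with a log2 fold change of 0.77 (SE 0.06, adjusted p = 7.71e-07, edgeR). MAP1LC3B has a near-identical copy, MAP1LC3B2, which was too low to be tested.

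GABARAPL1 (chr12:10212458-10223128), a relative of LC3B, was at 68.3, 59.4 and 73.5 CPM against 35.4, 44.1 and 35.5 CPM, with a log2 fold change of 0.81 (SE 0.10, adjusted p = 4.50e-05, edgeR). SQSTM1 (chr5:179806398-179838078), encoding the p62 receptor, was at 91.4, 85.3 and 98.5 CPM against 55.5, 63.8 and 57.1 CPM, with a log2 fold change of 0.64 (SE 0.08, adjusted p = 3.51e-05, edgeR). In both genes the lowest BIX-01294 library was above the highest DMSO library. BECN1, encoding the Beclin 1 subunit of the lipid kinase that starts autophagosomes, went the other way, at 97.0, 98.1 and 103 CPM against 116, 120 and 115 CPM. It fell by 0.24 on the log2 scale (SE 0.06, adjusted p = 0.00794, edgeR). In all 4 of the 13 autophagy genes passed as higher and 1 as lower, and ULK1, ATG5, ATG7, ATG9A, ATG16L1, UVRAG, WIPI1 and NBR1 did not pass, with log2 fold changes from −0.17 (WIPI1) to 0.12 (ATG5). The same 4 genes were called by DESeq2 and limma-voom, and all 4 passed under each of the 13 alternatives.

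Not every ATG8-family gene could be read. GABARAP, which belongs to the rest of the pathway and is named after its values were seen, was listed at 0.0582 to 0.354 CPM in all 6 libraries. In the annotation used here 48.2% of its exon bases are shared with exons of other genes. How the deposited counts treat such bases is not given in the sources used here.

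**Figure D2:**
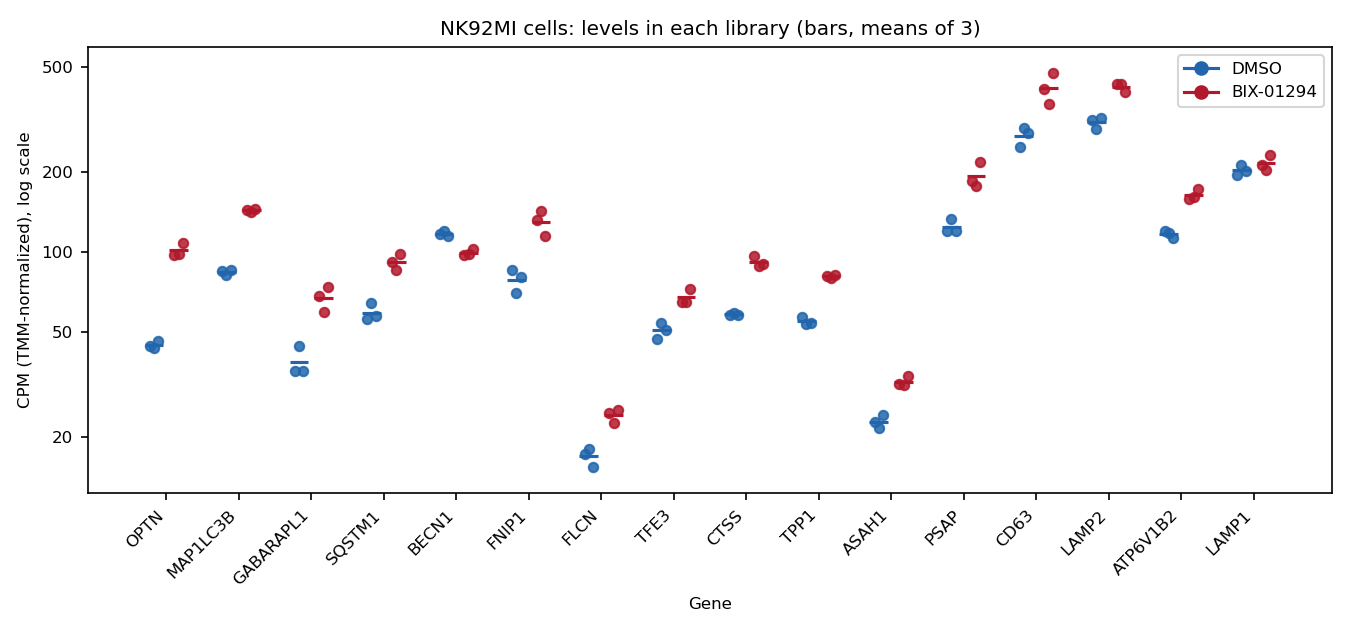
TMM-normalized CPM (y axis, log scale) of 16 members in each NK92MI library, with blue points for DMSO, red points for BIX-01294 and bars at the mean of 3 libraries. OPTN shows the widest gap, at 97.5 to 108 CPM against 43.1 to 46.0 CPM, BECN1 lies lower after BIX-01294, and the groups overlap for LAMP1.

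Of the 4 regulators of lysosomal genes that were listed, 3 passed as higher (FNIP1, FLCN and TFE3). FNIP1 (chr5:131641714-131797017) and FLCN (chr17:17212212-17237188) encode the partners of the folliculin complex, which acts on RRAGC and RRAGD at the lysosome surface. FNIP1 was counted at 132, 143 and 114 CPM after BIX-01294 against 85, 70.2 and 80.2 CPM, with a log2 fold change of 0.73 (SE 0.09, adjusted p = 3.87e-05, edgeR). FLCN was lower in level, at 24.6, 22.6 and 25.2 CPM against 17.3, 18.1 and 15.3 CPM, with a log2 fold change of 0.51 (SE 0.10, adjusted p = 0.00147, edgeR). Among the transcription factors themselves, TFE3 rose from 47.0, 54.0 and 50.8 CPM to 64.8, 64.8 and 72.6 CPM, with a log2 fold change of 0.41 (SE 0.08, adjusted p = 0.00117, edgeR). TFEB stood at 18.9, 19.8 and 23.3 CPM against 14.5, 19.4 and 15.4 CPM, so that a BIX-01294 library lay below a DMSO library, and its log2 fold change of 0.33 (SE 0.13) missed the threshold (adjusted p = 0.0574, edgeR). Per kilobase of exon, TFE3 was at 12 and TFEB at 2.45 CPM in DMSO cells. With the pan-NK scaling FNIP1, FLCN and TFE3 did not pass (log2 fold changes of 0.42, 0.20 and 0.10).

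The hydrolases were divided in their response, with 7 of 19 higher, 1 lower and 11 not passing. CTSS (chr1:150730079-150765957), encoding cathepsin S, which trims the invariant chain of MHC class II, stood at 96.2, 88.5 and 89.7 CPM against 57.5, 58.9 and 57.6 CPM, with a log2 fold change of 0.66 (SE 0.07, adjusted p = 7.26e-06, edgeR). TPP1 (chr11:6612768-6619448), encoding tripeptidyl peptidase, stood at 80.8, 79.9 and 81.4 CPM against 56.5, 53.5 and 53.8 CPM, with a log2 fold change of 0.56 (SE 0.07, adjusted p = 2.51e-05, edgeR). ASAH1, encoding acid ceramidase, was at 31.8, 31.3 and 33.8 CPM against 22.7, 21.6 and 24.1 CPM, with a log2 fold change of 0.50 (SE 0.09, adjusted p = 0.000662, edgeR). These 3 hydrolases were called, and replicates of a group lay closer together than the groups did. NEU1, a sialidase, was higher by 0.44. SMPD1, acid sphingomyelinase, LIPA, acid lipase, and CTSZ, cathepsin Z, passed at log2 fold changes of 0.29, 0.24 and 0.24, and turned to −0.029, −0.062 and −0.078 with the pan-NK scaling. TPP1, ASAH1 and NEU1 did not pass with that scaling either (0.25, 0.19 and 0.12), which left CTSS as the one hydrolase that passed as higher.

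MAN2B1, a lysosomal mannosidase, was lower in every BIX-01294 library, at 29.2, 27.7 and 30.3 CPM against 37.0, 36.9 and 33.1 CPM, and fell by 0.29 on the log2 scale (adjusted p = 0.0169, edgeR). CTSC, encoding the cathepsin C that activates granzymes in cytolytic granules, was the most abundant hydrolase and the second member per kilobase of exon. It stood at 1169, 1100 and 1207 CPM against 1140, 1162 and 1165 CPM, a log2 fold change of 0.00 (SE 0.06, adjusted p = 0.966, edgeR). Its libraries overlapped, with differences smaller than those between replicates. The hydrolases CTSB, CTSH and LGMN were at 0.533 to 3.72 CPM in all libraries and none of them passed.

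Both lumenal cofactors rose. PSAP (chr10:71816298-71851251), encoding the precursor of the saposins that present lipids to hydrolases, was at 185, 177 and 219 CPM against 120, 133 and 120 CPM, with a log2 fold change of 0.64 (SE 0.08, adjusted p = 5.46e-05, edgeR). GRN (chr17:44345246-44353106), encoding progranulin, was at 51.7, 48.0 and 62.9 CPM against 41.0, 47.0 and 41.3 CPM, with a log2 fold change of 0.33 (SE 0.10, adjusted p = 0.0197, edgeR). The margin for GRN was narrow, with BIX-01294 replicate 2 just above the highest DMSO library, and with the pan-NK scaling its log2 fold change was 0.01.

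The membrane proteins did not move together. CD63 (chr12:55725323-55729707), a tetraspanin of late endosomes and granules and the highest member per kilobase of exon (113 CPM per kilobase in DMSO cells), was at 411, 363 and 476 CPM against 249, 293 and 281 CPM, with a log2 fold change of 0.60 (SE 0.09, adjusted p = 0.000186, edgeR). LAMP2 was at 432, 429 and 401 CPM against 315, 290 and 321 CPM, with a log2 fold change of 0.45 (SE 0.06, adjusted p = 0.000124, edgeR), which was 0.14 and did not pass with the pan-NK scaling. LAMP1, its close relative, overlapped between the groups at 213, 203 and 232 CPM against 195, 212 and 203 CPM (log2 fold change 0.09, SE 0.07, adjusted p = 0.325, edgeR). CLN3, SCARB2, MCOLN1 and TMEM55A did not pass either, TMEM55A with the largest estimate of these at −0.51 (SE 0.25) and only 1.94 to 4.2 CPM.

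Among the proton pump genes, 4 of 5 passed as higher. ATP6V1B2, a subunit of the catalytic V1 domain, was at 158, 161 and 173 CPM against 120, 118 and 112 CPM, with a log2 fold change of 0.49 (SE 0.06, adjusted p = 5.61e-05, edgeR). ATP6V1H and ATP6V1A, also of the V1 domain, had 0.41 and 0.27, and the accessory gene ATP6AP1 had 0.25. The membrane-domain gene ATP6V0D1 had 0.07 (adjusted p = 0.538, edgeR). With the pan-NK scaling none of these 4 passed, ATP6V1B2 and ATP6V1H at 0.18 and 0.09, and ATP6V1A and ATP6AP1 turned to −0.038 and −0.073.

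Exons of other genes can share reads with a member, and the strand setting of the counting is not given in the sources used here. Of the members that passed in NK92MI cells, CTSZ shared the most exon bases (31.7%, largely with NELFCD on the opposite strand), followed by SQSTM1 (22.4%, with MRNIP on the opposite strand) and MAN2B1 (21.2%). OPTN shared 4.89% and MAP1LC3B 1.19%. Markers of macrophages were close to absent from NK92MI cells, with 7 of 12 not listed, among them LYZ, C1QA and CD163, and the other 5 summing to 4.31 to 5.24 CPM after BIX-01294 and 2.51 to 3.55 CPM after DMSO.

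Promoter sequences were looked up for the E-box CACGTG, the core of the motif that TFEB and TFE3 bind, for the longer palindrome TCACGTGA, and for that palindrome with a G before and a C after it. RefSeq windows of GRCh38.p14, from 250 bases before to 50 bases after each start, were found for 38 of the 50 members. CACGTG was present in the windows of 10 of these 38 genes (26.3%), where 12.4% of the 9816 genes tested with a window held it. TCACGTGA was present for 6 (15.8%, against 2.21%) and the longest palindrome for 2 (5.26%, against 0.876%). The motifs read the same on both strands, and each longer one contains the shorter ones. A match is a description of these windows only.

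Among members with a window, the motif was not found mainly at those that rose. CTSS, ASAH1, PSAP, LAMP2, ATP6V1A, ATP6V1B2 and ATP6V1H passed as higher but had no window. Of the 15 members with a window that passed as higher, 3 held CACGTG (FNIP1, NEU1 and CD63) and 0 held TCACGTGA, whereas 6 of the 21 members that did not pass held TCACGTGA (LAMP1, CLN3, ATP6V0D1, GAA, MCOLN1 and CTSA). Of all genes tested with a window, 2.22% of those that passed as higher and 2.24% of those that did not pass held TCACGTGA. The 6 genes with TCACGTGA had a median log2 fold change of 0.08, from −0.11 (GAA) to 0.30 (CLN3). The 4 genes with the shorter E-box alone had a median of 0.52, and the 28 genes with none of the motifs had 0.09, including OPTN at 1.19. None of the 12 autophagy genes with a window held CACGTG. Upstream stretches are shown for 5 members that hold the longer palindrome and did not pass, and then for the 3 that hold the E-box and passed, so that the arrangement of the motifs can be compared. Capitals mark CACGTG, together with the flanking bases where these complete the longer palindromes searched for, and each stretch is given 5′ to 3′ on the strand of the gene.
GAA (chr17:80101483-80101577, plus strand, log2 fold change −0.11): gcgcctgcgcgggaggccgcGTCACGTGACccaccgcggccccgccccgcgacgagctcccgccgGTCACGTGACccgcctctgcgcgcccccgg
MCOLN1 (chr19:7522562-7522623, plus strand, log2 fold change −0.06): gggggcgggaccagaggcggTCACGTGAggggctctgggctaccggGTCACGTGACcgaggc
CTSA (chr20:45891273-45891334, plus strand, log2 fold change 0.15): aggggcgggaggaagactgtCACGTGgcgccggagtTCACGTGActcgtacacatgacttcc
ATP6V0D1 (chr16:67481190-67481237, minus strand, log2 fold change 0.07): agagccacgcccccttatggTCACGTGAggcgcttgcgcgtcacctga
LAMP1 (chr13:113297027-113297237, plus strand, log2 fold change 0.09): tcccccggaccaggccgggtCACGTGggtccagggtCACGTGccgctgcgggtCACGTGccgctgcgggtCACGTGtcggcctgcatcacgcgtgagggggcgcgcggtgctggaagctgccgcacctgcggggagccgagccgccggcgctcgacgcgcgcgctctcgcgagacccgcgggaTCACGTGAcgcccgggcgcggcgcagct
FNIP1 (chr5:131797086-131797212, minus strand, log2 fold change 0.73): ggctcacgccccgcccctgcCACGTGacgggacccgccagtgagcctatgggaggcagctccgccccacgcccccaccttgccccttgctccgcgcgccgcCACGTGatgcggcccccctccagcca
NEU1 (chr6:31862922-31862967, minus strand, log2 fold change 0.44): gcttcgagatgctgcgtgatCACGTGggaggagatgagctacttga
CD63 (chr12:55729164-55729209, minus strand, log2 fold change 0.60): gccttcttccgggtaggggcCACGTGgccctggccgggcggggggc
LAMP1 held 5 E-boxes in its stretch, the most of the members shown, and overlapped between BIX-01294 and DMSO. GAA and MCOLN1 were the only members with the longest palindrome, and GAA held it at 2 places.

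Of 125 further lysosome and autophagy genes, 110 were tested, of which 35 passed as higher and 15 as lower (31.8% and 13.6%, where 18.4% of all genes passed in each direction), with a median log2 fold change of 0.10. Their 18 regulators held 3 that passed as higher and 5 as lower, and their 12 proton pump genes 7 and 0. The highest among the called genes by adjusted p were LAPTM4A, a lysosomal transmembrane protein, with a log2 fold change of 0.91 (adjusted p = 7.89e-07, edgeR), the cholesterol transporter NPC1 with 0.58, the autophagosome gene TMEM41B with 0.71 and RRAGC, whose product is a target of folliculin, with 0.83. The lowest by the same rule were ATG16L2 with −0.65 (adjusted p = 3.51e-05, edgeR), the lipid transfer gene ATG2A with −0.61, the lysosomal ion channel TMEM175 with −0.97 and the hydrolase NAGLU with −0.70. In all 11 of the 110 tested genes of this wider list were called as higher and 6 as lower. Of all genes, 6.24% were called as higher and 5.43% as lower.

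In KO NK cells most members lay below WT, and the autophagy receptor gene Optn, which rose after BIX-01294, was lower. Of the 53 members, 41 had a log2 fold change below 0 and 12 above, with a median of −0.25 against 0.01 for all genes. With edgeR 8 members passed as lower and 1 as higher (15.1% and 1.89%), where 7.43% and 4.44% of all genes did. With the pan-NK scaling the members' median was −1.11, or −0.29 relative to a median gene at −0.82, compared with −0.26 under TMM. With that scaling 48 members passed as lower and 0 as higher, and most genes moved down with them. The number of all genes that passed is given in the closing section. The pan-NK list is no fixed reference here either, since all 12 of its genes were above 0 in KO NK cells and 7 passed as higher. No member was called by edgeR, nor was any other gene (0.00% in each direction). At an unadjusted p under 0.05 there were 26 lower and 4 higher members, where 20% and 15.8% of all genes were lower and higher. DESeq2 called 13 members, all lower (all genes, 8.33% lower and 3% higher), and limma-voom 0. KO and WT libraries were apart for 20 lower and 5 higher members (all genes, 19.3% and 19.1%).

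These counts turned on single libraries. Without WT replicate 2, 18 members were called (17 lower and 1 higher, against 5.56% and 3.11% of all genes), and without KO replicate 2, KO replicate 3, WT replicate 1 or WT replicate 3 no member passed. Fold changes were steadier than the tests, since the members' median lay between −0.35 (without WT replicate 2) and −0.18 (without WT replicate 1).

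The largest differences among the hydrolases were those of Lgmn, Ctsb and Ctsl. Lgmn (GRCm38 chr12:102394084-102439813), encoding the asparaginyl protease legumain, was counted at 99, 51.1 and 73.3 CPM in KO replicates 1 to 3 and at 380, 119 and 273 CPM in WT replicates 1 to 3, with a log2 fold change of −1.79 (SE 0.41, adjusted p = 0.0413, edgeR). Ctsl (chr13:64359337-64370890), encoding cathepsin L, was at 35.1, 26.9 and 19.6 CPM against 89.5, 44.6 and 55.5 CPM, with a log2 fold change of −1.22 (SE 0.29, adjusted p = 0.0436, edgeR). In both genes WT replicate 2 was the lowest WT library and lay nearest to the KO libraries. Asah1 (chr8:41340197-41374773) was at 63.3, 42.7 and 53.5 CPM against 134, 66.7 and 112 CPM, with a log2 fold change of −0.97 (SE 0.25, adjusted p = 0.0484, edgeR). KO replicate 1 and WT replicate 2 nearly met there. Ctsb, encoding cathepsin B, had the highest mean CPM of the hydrolases in the WT libraries, while Ctsd and Ctss were higher per kilobase of exon. Ctsb was at 837, 561 and 698 CPM against 2650, 901 and 1660 CPM and missed the threshold at a log2 fold change of −1.31 (SE 0.36, adjusted p = 0.0522, edgeR).

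The other hydrolases did not pass. Of the 20 in all, 14 were lower and 1 higher at an unadjusted p under 0.05, and 17 of the estimates were below 0. Smpd1 at 0.26 and Ctsd at 0.19 were above 0 and their groups did not overlap. Ctsd, encoding cathepsin D, stood at 841, 900 and 883 CPM in KO and 827, 729 and 739 CPM in WT NK cells.

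Both cofactors were lower in every KO library than in any WT library. Grn (chr11:102430315-102437048) was at 243, 197 and 180 CPM against 593, 292 and 428 CPM, with a log2 fold change of −1.08 (SE 0.24, adjusted p = 0.0406, edgeR). Psap, the member with the highest level per kilobase of exon in WT NK cells (1078 CPM per kilobase), was at 1921, 1432 and 1519 CPM against 3894, 2051 and 2926 CPM, with a log2 fold change of −0.86 (adjusted p = 0.0533, edgeR). Among the membrane proteins, Lamp1 (chr8:13159161-13175338) was at 382, 319 and 354 CPM against 605, 432 and 539 CPM, with a log2 fold change of −0.58 (SE 0.14, adjusted p = 0.0431, edgeR), and Lamp2 had −0.71 (adjusted p = 0.0530, edgeR). Cln3 (chr7:126571207-126585817), a lysosomal membrane protein whose loss causes Batten disease, was the only member to pass as higher. It stood at 157, 173 and 159 CPM against 110, 142 and 113 CPM, with a log2 fold change of 0.42 (SE 0.11, adjusted p = 0.0493, edgeR), which turned to −0.38 with the pan-NK scaling.

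No proton pump gene passed, nor was any at an unadjusted p under 0.05 (edgeR), with log2 fold changes from −0.20 (Atp6v0d1) to 0.01 (Atp6v1h) and adjusted p from 0.265 to 0.959. Of the regulators, Tfeb was at 147, 142 and 130 CPM in KO against 142, 141 and 153 CPM in WT NK cells (log2 fold change −0.06, SE 0.08, adjusted p = 0.604, edgeR), and Tfe3 had −0.28 (SE 0.12, adjusted p = 0.142, edgeR). Mitf, at 2.23, 2.48 and 2.91 CPM against 9.17, 2.48 and 5.21 CPM, and Rragd, at 1.09, 0.593 and 0.768 CPM against 3.70, 0.853 and 3.12 CPM, had the largest estimates (−1.15 and −1.66) and did not pass (adjusted p = 0.101 and 0.0740, edgeR). Both were low in level, and WT replicate 2 lay among or next to the KO libraries. Flcn had 0.25 (adjusted p = 0.0698, edgeR), which turned to −0.59 with the pan-NK scaling.

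**Figure D3:**
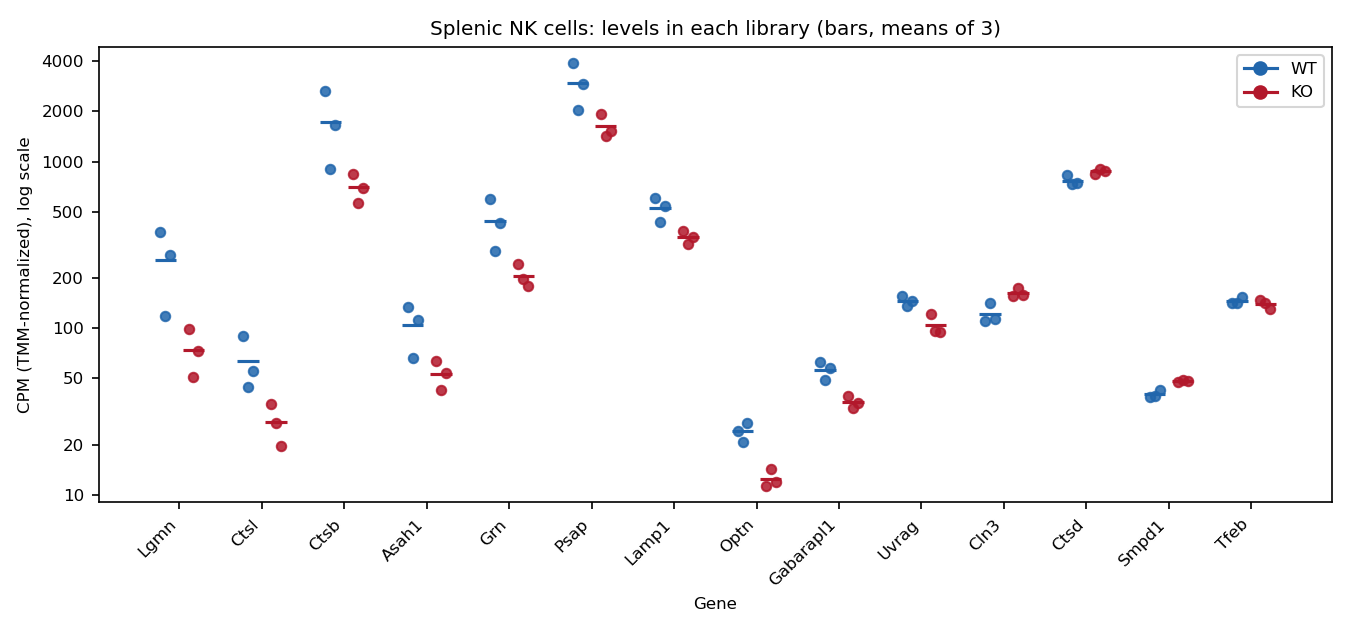
TMM-normalized CPM (y axis, log scale) of 14 members in each splenic NK library, with blue points for WT, red points for KO and bars at the mean of 3 libraries. The middle point of each blue group is WT replicate 2, which lies nearest to the KO libraries for Lgmn (119 CPM, with KO replicate 1 at 99 CPM) and Ctsb (901 and 837 CPM), while for Optn the nearest values are 20.7 and 14.2 CPM.

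Among the autophagy genes 3 passed, all lower, and WT replicate 2 lay, as a ratio, less far from the other WT libraries in these genes than in Lgmn, Ctsl and Asah1. Optn (chr2:5020642-5064051) was at 11.3, 14.2 and 12 CPM in KO replicates 1 to 3 and at 24.3, 20.7 and 27.2 CPM in WT replicates 1 to 3, with a log2 fold change of −0.95 (SE 0.14, adjusted p = 0.0241, edgeR), the smallest adjusted p of the members. Gabarapl1 (chr6:129533160-129542346) was at 39.4, 33.2 and 35.4 CPM against 62.5, 48.9 and 57.8 CPM, with a log2 fold change of −0.65 (SE 0.12, adjusted p = 0.0304, edgeR). Uvrag (chr7:98885021-99141141), encoding a partner of Beclin 1, was at 121, 96.8 and 95.0 CPM against 156, 135 and 145 CPM, with a log2 fold change of −0.48 (SE 0.11, adjusted p = 0.0428, edgeR). Every KO library was below every WT library in these genes. Each of the 3 passed under 10 of 14 alternatives and kept its direction in all of them, as did Lgmn, Ctsl, Grn and Lamp1. Asah1 passed under 8 of 14 and also kept its direction. Map1lc3b and Sqstm1 had log2 fold changes of 0.01 and −0.07 (adjusted p = 0.919 and 0.529, edgeR). Gabarapl1 shared 28.3% of its exon bases with another gene on the opposite strand, and Optn 1.95%.

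Markers of macrophages and monocytes moved with the KO comparison. Of 18 such genes, none of which was at 0 in any library, 17 were lower in KO NK cells and 11 passed as lower, among them Csf1r, Adgre1, Cd14, Marco and Mrc1. Their summed level was 10944, 3551 and 7292 CPM in WT replicates 1 to 3 and 3350, 1920 and 2748 CPM in KO replicates 1 to 3. The 20 hydrolases summed to 7821, 4375 and 6130 CPM in WT and to 4353, 3618 and 3800 CPM in KO replicates 1 to 3, and Psap with Grn to 4487, 2344 and 3354 CPM and to 2164, 1630 and 1699 CPM. The 6 libraries took the same order in all of these sums. The 13 autophagy genes summed to 1241, 1218 and 1288 CPM in WT and to 1173, 1160 and 1170 CPM in KO replicates 1 to 3, a far narrower range. Abundant genes that did not pass, such as Sqstm1 (323 to 359 CPM), weigh most in this sum. Optn (11.3 to 27.2 CPM) adds little, so the sum does not describe the autophagy genes that passed as lower. B cell markers summed to 571 to 1639 CPM in WT and 98.4 to 536 CPM in KO libraries, neutrophil markers to 170 to 1453 CPM and 29.7 to 192 CPM. The NK cells had been sorted from spleen, a step meant to remove such cells, and the gate used for these libraries is not given in the sources used here. The part of these other cells in the members' differences was not tested, and in bulk libraries fewer cells of a type cannot be told apart from less RNA per cell.

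**Figure D4:**
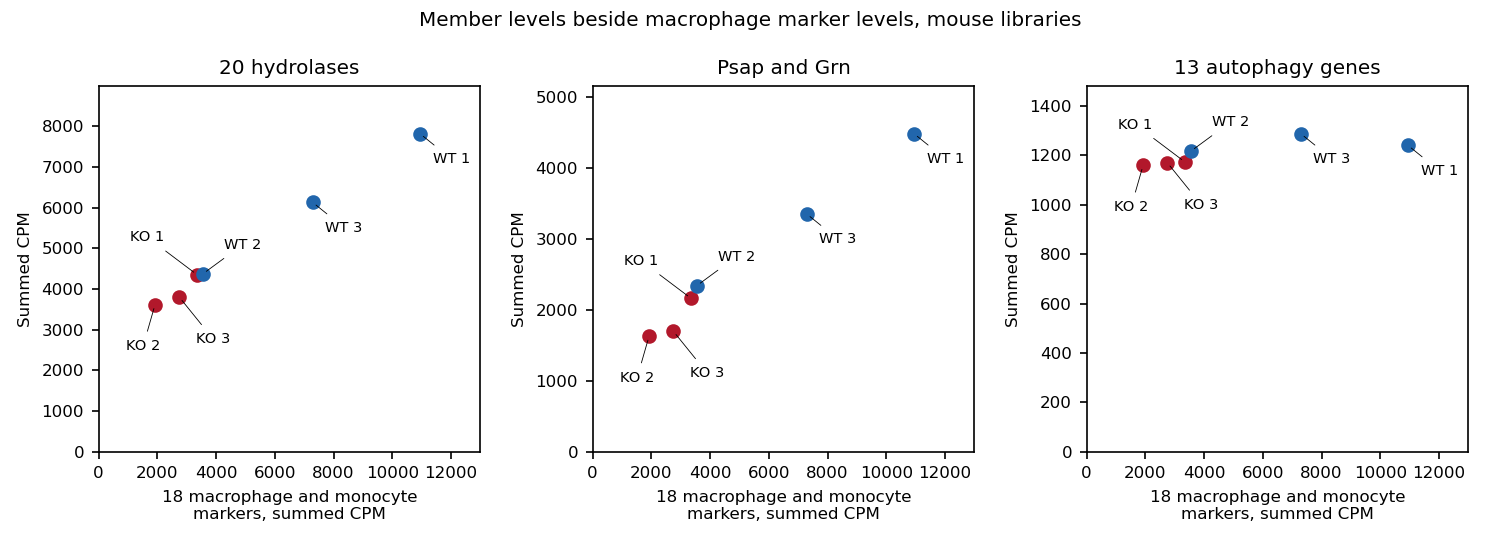
Summed CPM of 20 hydrolases, of Psap and Grn, and of 13 autophagy genes (y axes) against the summed CPM of 18 macrophage and monocyte markers (x axis) in each mouse library, with WT in blue and KO in red. Hydrolase and cofactor sums take the same order as the marker sum across the 6 libraries, KO replicate 1 and WT replicate 2 lie next to each other, and the autophagy sums stay between 1160 and 1288 CPM. The autophagy sum is weighted to abundant genes and does not show the low-level member Optn.

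KO replicate 1 and WT replicate 2, a pair singled out after the values were seen, had nearly the same summed macrophage level (3350 and 3551 CPM). Their sums were also near for B cell (536 and 571 CPM), neutrophil (192 and 170 CPM) and pan-NK markers (10751 and 9534 CPM). T cell (222 and 161 CPM) and dendritic cell sums (1219 and 1492 CPM) lay further apart. The pair is therefore not matched on macrophage markers alone. The hydrolase sums of the pair were adjacent as well (4353 and 4375 CPM), so the choice of the pair itself favoured small differences between hydrolases. Between these libraries all 20 hydrolases lay within 0.5 on the log2 scale, with a median of −0.03. The median of their fitted log2 fold changes was −0.48. Lgmn was at −0.26, Ctsl at −0.35, Ctsb at −0.11 and Asah1 at −0.07 between the 2 libraries. Outside 0.5 there were 2 members, both autophagy genes. Optn was at −0.88, close to its fitted value of −0.95, and Wipi1, at 2.42 and 3.53 CPM, was at −0.54. Gabarapl1 was at −0.31, Uvrag at −0.16 and Cln3 at 0.15, each smaller than its fitted value. With 1 library on each side these are values without a test.

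The rest of the pathway in KO NK cells comprised 122 tested genes, of which 7 passed as higher and 10 as lower, with a median log2 fold change of 0.01. These shares, 5.74% and 8.20%, were near those of all genes (4.44% and 7.43%). Named after their values were seen, Cst7, encoding cystatin F, an inhibitor of cathepsin C in cytotoxic cells, was higher at 168, 190 and 173 CPM against 74.9, 110 and 85.5 CPM (log2 fold change 0.98, adjusted p = 0.0239, edgeR), and Ctsw, encoding the cathepsin W of NK and T cells, at 739, 908 and 772 CPM against 342, 590 and 333 CPM (0.93, adjusted p = 0.0445, edgeR). Ctsc, the protease that cystatin F inhibits, was a member below 0 (−0.52, adjusted p = 0.0954, edgeR). Cst7 and Ctsw, like the pan-NK list, were lowest in WT replicates 1 and 3 and intermediate in WT replicate 2. The pan-NK list summed to 5614, 9534 and 5882 CPM in WT replicates 1 to 3 and to 10751, 12541 and 12395 CPM in KO replicates 1 to 3.

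Set side by side, the inhibitor in the human line and the deletion in mouse NK cells gave different pictures for the list as a whole. Of 50 members tested in both, 25 were above 0 after BIX-01294 and below 0 in KO, 3 the reverse, 9 above 0 in both and 13 below 0 in both. Most members were above 0 after BIX-01294 (34 of 50) and below 0 in KO (41 of 53). The first pattern would therefore be the most frequent without any link between the comparisons gene by gene. No share of all genes for these joint patterns is given. The first pattern was held by 9 of 19 hydrolases, both cofactors, 3 of 7 membrane proteins, 4 of 5 pump genes, 3 of 4 regulators and 4 of 13 autophagy genes. It passed in both comparisons for 4 members, ASAH1, GRN, GABARAPL1 and OPTN. No other member passed in both comparisons. With the pan-NK scaling ASAH1 and GRN did not pass after BIX-01294. The comparisons differ in species, cell source, agent and duration and were normalized separately, and the difference between them was not tested.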

How the data were processed

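Bulk RNA-seq libraries were made with the NEB Next Ultra kit from NK92MI cells (BIX-01294 and DMSO groups) and splenic NK cells of KO and WT mice, 3 a group. The submitters' processing notes name fastp 0.23.4, STAR 2.7.11b, HTSeq 2.0.3 and DESeq2; reads were aligned to GRCh38 or GRCm38, allowing 2 mismatches. The deposited tables hold raw, whole-number counts by gene symbol. The annotation release and strand setting are not given in the sources used here. Human control columns carry no link to numbered DMSO samples and were used as a group. Nothing says whether replicates came from separate cultures or animals, so p-values measure only the spread between these samples.

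Counts were fitted per species in R 4.3.3 with edgeR 4.0.16 (TMM, filterByExpr, quasi-likelihood test, Benjamini-Hochberg adjustment over all genes tested). DESeq2 1.42.0, limma 3.58.1 (voom), other scalings and filters, and each library left out were alternatives. The procedure was tested on simulated data. CPM are TMM-normalized. Members and lists were chosen with earlier results of these data known. A member was named if it passed or was called, if it was TFEB, TFE3 or MITF, or if it had the smallest adjusted p or the largest change of its role. Other members were named to account for their role after their values were seen. Genes of the rest of the pathway were named if called, at most 4 per direction. Exon overlaps and positions came from GENCODE annotations of the same builds, and TMEM55A was read as PIP4P2 in the human table. Promoter windows came from RefSeq.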

Additional observations from a re-analysis of the deposited data

Results flagged for a closer look

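For 9 members every BIX-01294 library lay above every DMSO library while every KO library lay below every WT library, and for 1 member (ATG16L1) the reverse held. The groups were apart as higher in both comparisons for 3 members and as lower in both for 2. Of all genes, 24.1% were apart as higher and 23.9% as lower after BIX-01294, and 19.1% and 19.3% in KO. No share of all genes for both comparisons together is given. In 4 of the 9 the difference also passed an adjusted p of 0.05 in both comparisons (edgeR). The log2 fold changes were 1.19 after BIX-01294 and −0.95 in KO for OPTN, 0.81 and −0.65 for GABARAPL1, 0.50 and −0.97 for ASAH1, and 0.33 and −1.08 for GRN. With the pan-NK scaling ASAH1 (0.19) and GRN (0.01) did not pass after BIX-01294, while OPTN and GABARAPL1 did. Macrophage marker levels also differed between KO and WT libraries, and their part in these values was not tested. The difference between the comparisons was not tested, since species, agent and cell source differ together. With 3 libraries a group no library was removed from the main fits as an outlier, and each was left out in turn as an alternative.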

How the results depend on the processing

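In NK92MI cells the 11 called members were also called with DESeq2, limma-voom, DESeq2's size factors, a minimum mean CPM of 1 and no filter, and the number called was 9 with library totals only. Scaling to the pan-NK list gave 3 called members (OPTN higher, BECN1 and MAN2B1 lower), 7 passed higher and 12 lower, a median of −0.12, 6 and 34 for the rest of the pathway, 2672 genes called in all (1485 with TMM) and a median gene at −0.32; ATP6V1A (−0.038), SMPD1 (−0.029), LIPA (−0.062), CTSZ (−0.078) and ATP6AP1 (−0.073) changed sign. With a library left out, 9 to 12 members were called, 17 to 25 passed higher and 0 to 2 lower, and the median lay between 0.12 (without BIX replicate 3) and 0.21.

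In KO NK cells the count that passed depended on the test. DESeq2 called 13 members, 15 of the rest of the pathway and 1495 genes in all, and 2 members passed higher and 24 lower, with 21 of the rest lower and 3087 genes in all. Taking an adjusted p of 0.05 with the fold threshold called 7 members, 13 of the rest and 1254 genes. The pan-NK scaling called 35 members, 40 of the rest and 3579 genes, and passed 8853 genes, with 0 members higher and 48 lower, 0 and 100 of the rest, a member median of −1.11, a median gene at −0.82 and reversed signs for Cln3 (−0.38) and Flcn (−0.59). No filter gave 13 members lower and 34 genes called; limma-voom called 3 genes and passed 0 members higher, as did DESeq2's size factors. With a library left out, 0 to 18 members were called, 0 to 3 passed higher and 0 to 26 lower, while 0 to 21 of the rest were called, 0 to 11 passed higher and 0 to 22 lower, and 0 to 1163 genes were called and 0 to 3530 passed. The largest of these were without WT replicate 2. The cause was not tested.

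The replicate numbers are not stated to pair animals. Same-numbered KO and WT libraries correlated in their deviations at 0.28, 0.35 and −0.19, and libraries of unlike number at −0.44 to 0.28. With 3 libraries a group, these values cannot decide whether the numbers pair animals. With the replicate block edgeR called 12 members, 9 of the rest and 819 genes, with 2 members higher and 22 lower, 22 of the rest lower and 3222 genes passed. For NK92MI cells no paired analysis was possible because the control columns carry no replicate numbers. Members at a few CPM, such as Rragd, Mitf, CTSH and TMEM55A, have wide standard errors at this depth.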
